A study of Mus musculus with 2 samples.

Results

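Collagens are the main structural proteins of the extracellular matrix, and each collagen chain is encoded by a gene of its own. The genes described here were chosen by symbol alone, as every measured gene named Col, a number, a and a number, which gave 44 of the 32285 genes in the count tables. No measured value entered this rule, which was set with earlier results of these data known. The question was which collagens each kind of cell of a mouse tumour carried, and how the levels stood in tumour from animals given WQ-2101 beside vehicle.

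The study profiled whole tumours by droplet single-cell RNA sequencing, which reads the 3′ end of transcripts and counts molecules through unique molecular identifiers (UMIs). CT26 cells, a mouse colorectal carcinoma line that grows in BALB/c mice, were placed under the skin of mice aged 5 weeks. Once tumours measured about 100 mm³, the mice received WQ-2101, labelled as an inhibitor of the serine synthesis enzyme PHGDH, at 20 mg/kg into the peritoneum every day, or vehicle, and tumours were taken on day 17. Mice of both groups were labelled wild type, and both libraries carried the label of batch 1. CT26 cells are 1 cell line implanted under the skin, away from the colon, in mice with an intact immune system. There was 1 library per group, and how many mice lie behind each is not given in the sources used. No value below therefore has a replicate error, the treatment was not tested, and every interval covers counting error only.

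As background, a collagen molecule is built from chains wound around each other. Fibrillar collagens (types I, III, V, XI, XXIV, XXVII) form the fibres of connective tissue, and fibroblasts are their best known source. Type IV collagen forms the sheet of basement membranes under vessels and epithelia, with the related proteins encoded by Col15a1 and Col18a1 at its edge. Type VI collagen makes beaded filaments between the fibres, the fibril-associated collagens (types IX, XII, XIV, XVI and others) sit on fibre surfaces, and type VIII makes networks in vessel walls. Chains are hydroxylated, folded and exported with the help of enzymes and chaperones such as prolyl hydroxylases and Serpinh1, and are then trimmed and crosslinked outside the cell, for example by Bmp1 and Lox.

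Barcodes numbered 14374 for vehicle and 18142 for WQ-2101, with 184754398 and 185587327 UMIs in all. After filtering, 13668 and 17293 cells remained, with medians of 10742.5 and 8048 UMIs. The libraries shared 73 barcodes, of which 13 were in the same class in both and 1 was in a stromal class. Classes were cut from marker counts in each cell and not from clusters, and no collagen was a marker. The fibroblast gate held 136 vehicle and 51 WQ-2101 cells, the pericyte gate 17 and 16, the endothelial gate 34 and 7, and the tumour gate 6019 and 7578. Median depths were 10383 and 7742 UMIs in fibroblasts, and 16355 and 13269 in the tumour gate. Another 36.9% of vehicle and 43.3% of WQ-2101 cells met no gate and entered no comparison.

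The labels were checked against defining markers. In the fibroblast gate Mfap5, a microfibril protein, had 2120 CPM (counts per 1000000 UMIs of the class) in the vehicle and 1673 CPM in the WQ-2101 library. Pericyte-gate cells carried Rgs5 at 3232 CPM in vehicle, but also the smooth muscle genes Acta2 (6437 CPM in vehicle and 3416 in WQ-2101), Tagln (3485 and 1005) and Myh11 (394 and 126), so the gate holds mural cells rather than pericytes alone. Tumour cells were the class least secured by its markers. Of 8 tumour markers, Hmga2, a chromatin protein of embryonic and cancer cells, was the only one detected at a level that could set a gate, with keratins and Cldn4 at or near 0. The tumour gate therefore rests on Hmga2, on the absence of Ptprc and on low macrophage markers. It also leaves out cells with several stromal markers, so its contrast with the fibroblast gate is partly set by the gates. Its cells are called Hmga2+ cells below. These cells also carried fibroblast markers, summed at 729 CPM in vehicle and 616 CPM in WQ-2101, against 5121 and 5523 CPM in the fibroblast gate. Fibroblast-gate cells had Hmga2 at 24.6 and 48.5 CPM, and some fibroblast results are given with and without those cells. Cells that met the fibroblast markers but had 2 or more Hmga2 UMIs, 70 and 38 of them, were kept out of it, and collagens took 1.11% and 0.647% of their UMIs.

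Of the 44 collagen genes, 27 are named below. In at least 1 class these had a mean of at least 5 CPM over both libraries and more than 3 UMIs in 1 of them. Another 16 met that rule in no class, and Col9a1 had no UMI in any of the 4 classes. In Hmga2+ cells the highest of the 16 stood at 2.15 CPM. In smaller classes a few UMIs gave more, such as Col20a1 at 7.03 CPM (10 UMIs) in vehicle fibroblasts. Col6a4 was at 28.1 and 37.7 CPM in the pericyte gate, on 3 UMIs in each library. A gene counted as measured in a comparison where its mean level was at least 5 CPM and 1 library held more than 3 UMIs. That held for 26 of 44 genes in fibroblasts, 18 in the pericyte gate, 10 in endothelial cells and 17 in Hmga2+ cells, and for 7 genes in all 4 classes. Reads mark transcript ends, so CPM counts transcripts and was not divided by gene length.

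Collagens took 3.82% of all fibroblast UMIs in vehicle (95% Poisson interval 3.79 to 3.85) and 3.58% in WQ-2101 (3.52 to 3.63). From cell to cell the vehicle fibroblasts ranged from 2.87% at the lower quartile to 4.66% at the upper, around a median of 3.67%. The WQ-2101 fibroblasts had a wider spread, from 2.17% to 4.68% around 3.27%. The pericyte gate followed with 1.46% and 1.47%, then endothelial cells with 0.539% and 0.535% and Hmga2+ cells with 0.189% and 0.172%. This order of classes was the same in both libraries. Macrophages, used as a rough gauge of free RNA in droplets, held 0.016% and 0.015%. Of their 157 and 151 CPM of collagen, 26.7 and 13.9 CPM were Col14a1.

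**Figure D1:**
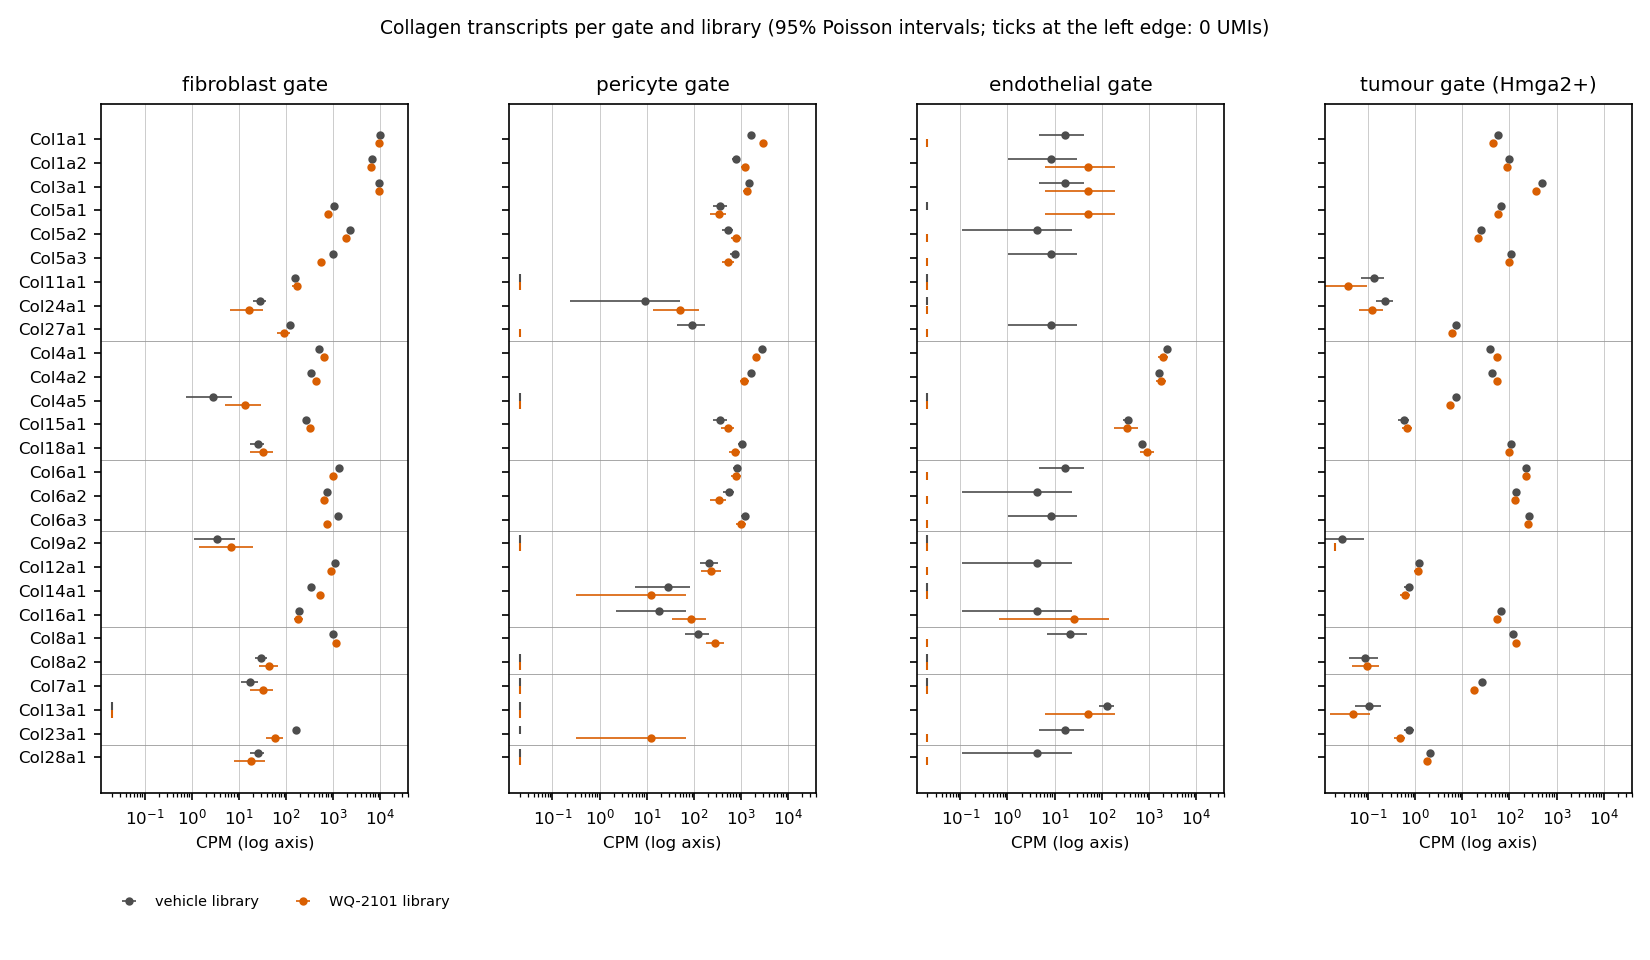
Levels of 27 collagen genes in the 4 gates, in CPM on a log axis, with dark points for the vehicle library, orange points for the WQ-2101 library and lines for 95% Poisson intervals; ticks at the left edge mark genes with 0 UMIs. Fibrillar genes lead in fibroblasts, Col4a1 and Col4a2 lead in endothelial cells, and intervals in the pericyte and endothelial gates are wide.

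The family that dominated differed between classes. Fibrillar genes held 80.7% of fibroblast collagen UMIs in vehicle and 81.0% in WQ-2101. Endothelial cells were nearly all basement membrane collagen, at 94.9% and 95.6%. The pericyte gate was mixed, with 39.1% and 49.7% fibrillar, 40.1% and 31.0% basement membrane and 18.2% and 14.9% beaded filament collagen. Hmga2+ cells carried 45.1% and 39.8% fibrillar collagen together with a large part of beaded filament collagen, 32.9% and 35.0%, which in fibroblasts was 8.80% and 6.69%.

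**Figure D2:**
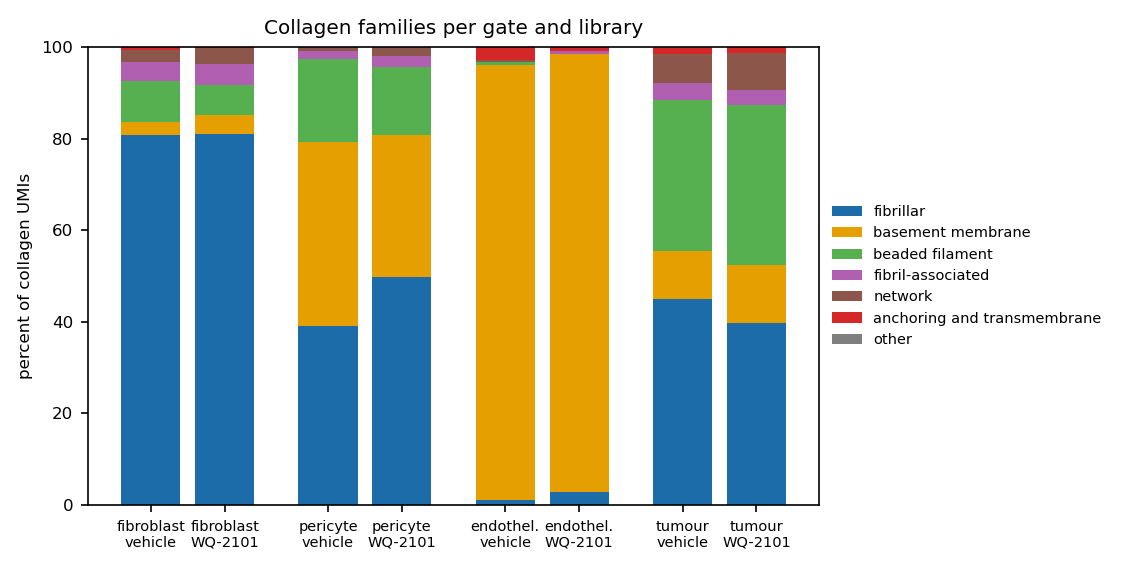
Percent of collagen UMIs in each collagen family, as stacked bars from 0 to 100 for each gate and library. Fibrillar genes hold 80.7% and 81.0% in the fibroblast gate, and basement membrane genes 94.9% and 95.6% in the endothelial gate.

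Type I collagen, the main fibre of skin and bone, is made of chains from Col1a1 and Col1a2. Col1a1 stood at 9951 CPM in vehicle and 9543 CPM in WQ-2101 fibroblasts, the highest level of any collagen in this class. Its partner Col1a2 was at 6746 and 6489.7 CPM. Both genes were far lower in Hmga2+ cells, where Col1a1 was at 56.5 and 45.4 CPM and Col1a2 at 95.4 and 89.7 CPM. In fibroblasts the ratio of Col1a1 to Col1a2 was 1.48 (1.44 to 1.51) in vehicle and 1.47 (1.40 to 1.54) in WQ-2101. In Hmga2+ cells the order of the chains was turned, with ratios of 0.592 and 0.506. The pericyte gate had ratios of 2.11 and 2.41.

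Col3a1, the chain of type III collagen in soft and healing tissue, was at 9398 CPM in vehicle and 9395 CPM in WQ-2101 fibroblasts. In Hmga2+ cells it was the highest of all collagens, at 495 CPM (95% Poisson interval 491 to 499.7) and 370.2 CPM (367 to 374). The ratio of Col3a1 to Col1a1 was 0.944 and 0.985 in fibroblasts and 8.76 and 8.15 in Hmga2+ cells. Type III without a matching level of type I was thus the pattern of the Hmga2+ gate in both libraries. That gate has many more cells than the fibroblast gate, and it held 62.4% of all Col3a1 UMIs in vehicle and 66.7% in WQ-2101, and fibroblasts 15.7% and 6.81%. Col1a1 was placed differently, with 51.2% and 29.1% of its UMIs in fibroblasts and 21.9% and 34.5% in Hmga2+ cells.

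Windows around the starts of Col1a2 and Col3a1 are printed here because their transcripts part company between the classes. Each holds 250 bases before the start and 50 after, 5′ to 3′ on the gene's strand, from RefSeq on GRCm38.p6, at chr6:4505368-4505667 (plus strand) and chr1:45311288-45311587 (plus strand). Capitals mark the TATA box letters TATAAA, the CCAAT box and the GC box letters GGGCGG. Each was searched on both strands, so a box on the other strand stands as its reverse complement. In the 4 windows printed here and below no box overlaps another.
Col1a2: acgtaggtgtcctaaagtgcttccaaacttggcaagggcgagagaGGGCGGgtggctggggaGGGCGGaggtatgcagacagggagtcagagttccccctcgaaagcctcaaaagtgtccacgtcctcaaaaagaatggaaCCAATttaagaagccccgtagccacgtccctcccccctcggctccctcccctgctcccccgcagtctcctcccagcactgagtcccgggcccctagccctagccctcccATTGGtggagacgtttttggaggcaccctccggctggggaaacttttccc
Col3a1: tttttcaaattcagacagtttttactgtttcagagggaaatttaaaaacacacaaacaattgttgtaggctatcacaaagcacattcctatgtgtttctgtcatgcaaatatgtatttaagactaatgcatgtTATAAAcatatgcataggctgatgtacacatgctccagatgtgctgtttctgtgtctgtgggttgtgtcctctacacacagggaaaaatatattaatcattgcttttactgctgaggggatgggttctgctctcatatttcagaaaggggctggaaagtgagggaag
The Col1a2 window held the CCAAT box 2 times and the GC box 2 times, with 61.0% G and C. The Col3a1 window held the TATA box 1 time and neither of the others, with 37.7% G and C. Over the 38 windows of 35 collagen genes in that table, the TATA box was in 13.2% against 13.6% of 32851 windows of all genes, the CCAAT box in 34.2% against 37.4%, and the GC box in 60.5% against 35.7%. Such letters describe the sequence and do not show that a factor binds there. The gene coordinates used, from GENCODE, start Col1a2 at chr6:4504814, outside the window printed from RefSeq. The start of Col1a2 thus differs between these annotations, and its boxes hold for the RefSeq start only. No window was used for Col1a1, Col2a1, Col4a3, Col5a2, Col9a3, Col12a1, Col14a1, Col22a1 and Col26a1.

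Type V collagen nucleates fibres and sets their width. In fibroblasts Col5a2 was at 2363 CPM in vehicle and 1911 CPM in WQ-2101, Col5a1 at 1045 and 792 CPM, and Col5a3 at 1026 and 552 CPM. Hmga2+ cells had the chains in another order, with Col5a3 first at 105 and 95.4 CPM, Col5a1 at 66.9 and 57.5 CPM, and Col5a2 at 25.1 and 21.4 CPM. The ratio of Col5a1 to Col5a2 was 0.442 and 0.414 in fibroblasts and 2.66 and 2.69 in Hmga2+ cells. The chain mix of type V therefore differed between these classes by more than the counting intervals in each library.

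The remaining fibrillar genes were rarer. Col11a1, a minor chain of thin fibres, was at 156 and 171 CPM in fibroblasts, with 222 and 74 UMIs, and had 0 UMIs in the pericyte and endothelial gates. Fibroblasts held 71.2% and 88.1% of all its UMIs. Col27a1, known from cartilage, was at 124 and 90.0 CPM in fibroblasts, and Col24a1 at 28.1 and 16.2 CPM. Each of the 3 was at or under 7.22 CPM in Hmga2+ cells.

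Basement membrane collagen had its highest levels in the vessel classes. Col4a1 was at 2764 CPM in vehicle and 2085 CPM in WQ-2101 in the pericyte gate, and at 2399 and 2037 CPM in endothelial cells. Col4a2, its partner in the common type IV molecule, was at 1658 and 1193 CPM in the pericyte gate and at 1625 and 1802 CPM in endothelial cells. Between these classes Col4a1 did not differ beyond counting error in either library, with endothelial to pericyte ratios of 0.868 and 0.977. Fibroblasts had less, 502 and 660.0 CPM of Col4a1, and Hmga2+ cells 38.6 and 54.5 CPM. The Col4a1 to Col4a2 ratio lay between 1.13 and 1.75 in the 3 stromal classes, and at 0.892 and 0.985 in Hmga2+ cells.

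Col4a1 and Col4a2 lie head to head on chromosome 8, and their windows are printed because the chains were high in the same classes. On GRCm38.p6 the Col4a1 window is chr8:11312777-11313076 (minus strand) and the Col4a2 window chr8:11312555-11312854 (plus strand), with capitals as above.
Col4a1: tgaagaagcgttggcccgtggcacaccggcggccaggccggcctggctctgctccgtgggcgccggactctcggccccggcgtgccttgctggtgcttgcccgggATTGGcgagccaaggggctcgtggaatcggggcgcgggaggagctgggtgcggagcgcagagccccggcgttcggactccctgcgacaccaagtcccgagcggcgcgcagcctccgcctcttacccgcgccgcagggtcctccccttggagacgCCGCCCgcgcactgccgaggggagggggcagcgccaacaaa
Col4a2: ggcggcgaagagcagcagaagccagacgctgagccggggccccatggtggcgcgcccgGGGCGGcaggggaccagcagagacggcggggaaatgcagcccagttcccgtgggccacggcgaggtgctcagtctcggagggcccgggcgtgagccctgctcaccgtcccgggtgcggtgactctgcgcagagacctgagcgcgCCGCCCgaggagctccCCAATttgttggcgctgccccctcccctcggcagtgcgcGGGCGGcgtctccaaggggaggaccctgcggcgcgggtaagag
The starts were 21 bases apart and the windows shared 78 bases. The Col4a1 window held the CCAAT box 1 time and the GC box 1 time with 74.0% G and C, and the Col4a2 window the CCAAT box 1 time and the GC box 3 times with 73.7%. The 44 genes lie on 15 chromosomes, and 12 pairs of them have at most 428547 bases between them. Col3a1 and Col5a2 lie tail to tail on chromosome 1 with 24614 bases between them. In fibroblasts Col3a1 was at 9398 and 9395 CPM beside 2363 and 1911 CPM of Col5a2, and in Hmga2+ cells at 495 and 370.2 CPM beside 25.1 and 21.4 CPM.

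Col18a1, whose protein is cut to release endostatin, and Col15a1, its closest relative, split between the classes. Col18a1 was at 1059 and 753 CPM in the pericyte gate, 728 and 940.3 CPM in endothelial cells, 107 and 98.3 CPM in Hmga2+ cells, and only 25.3 and 32.3 CPM in fibroblasts. Col15a1 was at 365 and 527 CPM in the pericyte gate, 358 and 340 CPM in endothelial cells, 266 and 330.0 CPM in fibroblasts, and 0.569 and 0.668 CPM in Hmga2+ cells. The pair was thus present together in the vessel classes and parted elsewhere, as Col15a1 in fibroblasts and Col18a1 in Hmga2+ cells. The Col18a1 to Col15a1 ratio was 0.095 and 0.098 in fibroblasts, and 188 and 147 in Hmga2+ cells. Col4a5, a chain of kidney and skin basement membranes, was at 7.19 and 5.34 CPM in Hmga2+ cells.

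Type VI chains lay closer between fibroblasts and Hmga2+ cells than any measured fibrillar chain did. Col6a3 was at 1256 and 739 CPM in fibroblasts, 1237 and 1017 CPM in the pericyte gate and 262 and 253 CPM in Hmga2+ cells. Col6a1 was at 1347 and 1011 CPM, 834 and 804 CPM, and 223 and 219 CPM in the same classes. Col6a2 was at 758 and 635 CPM in fibroblasts, 562 and 339 CPM in the pericyte gate and 135 and 129 CPM in Hmga2+ cells. Endothelial cells had 7 UMIs of type VI in vehicle and 0 in WQ-2101. The Col6a1 to Col6a2 ratio was 1.78 and 1.59 in fibroblasts and 1.65 and 1.70 in Hmga2+ cells.

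The leading fibril-associated collagens were at their highest in fibroblasts. Col12a1, found on fibres under tension such as tendon, was at 1088 and 919 CPM in fibroblasts, 215 and 239 CPM in the pericyte gate and 1.22 and 1.13 CPM in Hmga2+ cells. Col14a1, which limits fibre width, was at 335 and 531 CPM in fibroblasts and 0.719 and 0.603 CPM in Hmga2+ cells. Col16a1 went another way, with 191 and 185 CPM in fibroblasts and a level of 66.7 and 54.0 CPM in Hmga2+ cells, which held 80.2% and 73.6% of its UMIs. Col9a2 had 5 and 3 UMIs in fibroblasts.

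Of the network and surface collagens, Col8a1, a chain of vessel wall type VIII, was at 991 and 1149 CPM in fibroblasts, 122 and 289 CPM in the pericyte gate and 118 and 139 CPM in Hmga2+ cells. Col8a2, also of type VIII, was at 30.2 and 43.8 CPM in fibroblasts, with 43 and 19 UMIs, and at 0.084 and 0.093 CPM in Hmga2+ cells. Col7a1, which anchors epidermis to dermis, was at 25.8 and 17.4 CPM in Hmga2+ cells, which held 82.0% and 74.3% of it. Col23a1, a transmembrane collagen, was at 166 and 57.7 CPM in fibroblasts. Col13a1, another transmembrane collagen, was at 130.5 CPM in vehicle endothelial cells with 31 UMIs in 13 of 34 cells, and at 52.2 CPM in WQ-2101 with 2 UMIs. It had 0 UMIs in fibroblasts and in the pericyte gate of both libraries.

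The classes were then set against each other within each library, counting a gene as different where it was 1.5-fold or more apart, in CPM plus 5, in the same direction in both libraries. Fibroblasts were higher than Hmga2+ cells for 22 of 25 measured collagens, beside 15.4% of all genes, and lower for 1, Col18a1, beside 24.9% of all genes. The pericyte gate was higher than Hmga2+ cells for 16 of 19, beside 15.5% of all genes, and lower for 1, beside 21.4%. Endothelial cells were higher than Hmga2+ cells for 5 of 17, beside 15% of all genes, and these were Col4a1, Col4a2, Col13a1, Col15a1 and Col18a1. They were lower for 11 of 17, beside 22.7%. Against fibroblasts, the pericyte gate was higher for 3 of 24 (Col4a1, Col4a2 and Col18a1), beside 10.5% of all genes, and lower for 14, beside 13%.

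The size of the gap between fibroblasts and Hmga2+ cells ran over several orders of magnitude. Col11a1 was 1194-fold higher in vehicle fibroblasts (95% interval 697 to 2220) and 4601-fold in WQ-2101, where it rested on 4 UMIs in Hmga2+ cells. Col12a1 was 890- and 811-fold higher, Col15a1 468- and 494-fold, and Col14a1 466- and 880-fold. Col1a1 was 176- and 210-fold higher, Col5a2 94.0- and 89.5-fold, and Col1a2 70.7- and 72.3-fold. Col3a1 stood at 19.0 and 25.4, above Col27a1, Col5a1, Col4a1, Col28a1, Col5a3, Col8a1 and Col4a2. At the low end were Col6a1 with 6.03 and 4.61, Col6a2 with 5.61 and 4.92, Col6a3 with 4.78 and 2.92 and Col16a1 with 2.87 and 3.42. Col18a1 stood at 0.236 and 0.329, so it was lower in fibroblasts.

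**Figure D3:**
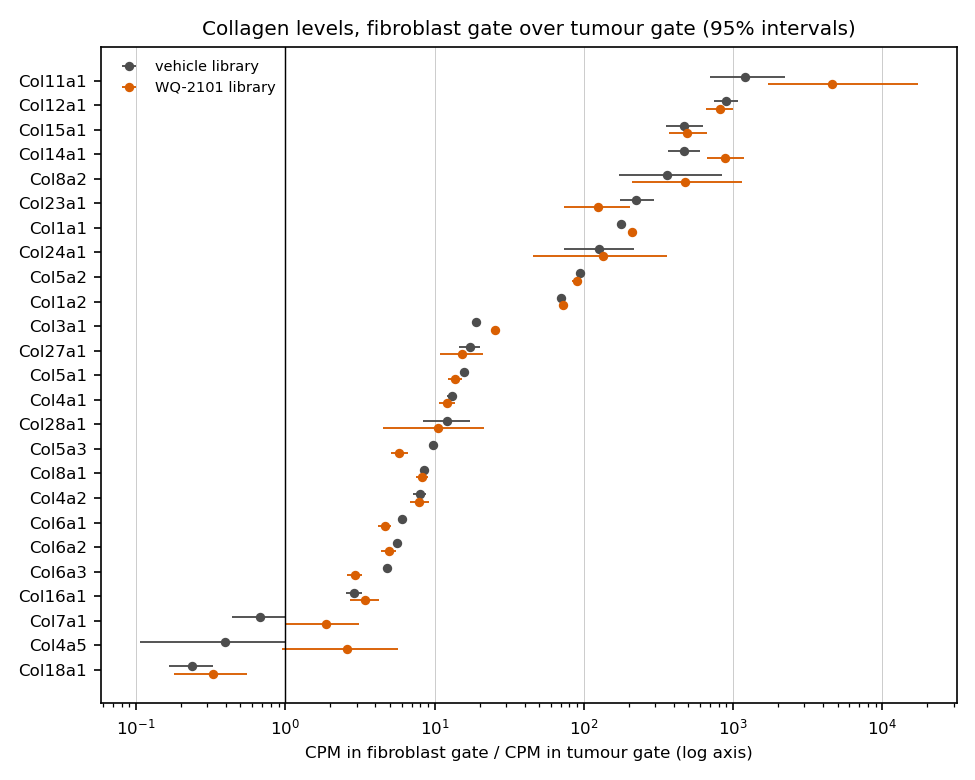
Ratio of the CPM in the fibroblast gate to that in the tumour gate on a log axis, for the 25 measured collagens, with 95% counting intervals and the vertical line at equal levels. Col11a1, Col12a1, Col15a1 and Col14a1 lie to the right of Col23a1 in both libraries, and Col18a1 lies under 1 in both.

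Free RNA was gauged for the low levels in Hmga2+ cells. If all Col12a1 in Hmga2+ cells came from fibroblast RNA, that RNA would be 0.112% of their UMIs in vehicle and 0.123% in WQ-2101. It would bring 11.2 and 11.8 CPM of Col1a1, against 56.5 and 45.4 CPM measured, and 10.6 and 11.6 CPM of Col3a1, against 495 and 370.2 CPM. Col11a1, Col14a1 and Col15a1, used in its place, gave 0.022% to 0.214%. They would bring 8.33 to 21.3 CPM of Col1a1 in vehicle and 2.07 to 19.3 CPM in WQ-2101. The tumour gate leaves out cells with several stromal markers, so these estimates can be too low. Macrophages offer a second yardstick, which can be too low because their gate leaves out cells with an Hmga2 UMI or several stromal markers. Col3a1 was 15.6 and 11.9 times higher in Hmga2+ cells than in macrophages, Col5a3 25.2 and 17.7 times, and Col1a1 4.50 and 5.90 times. For Col11a1, Col12a1, Col14a1 and Col15a1 themselves, expression in Hmga2+ cells cannot be told apart from free RNA.

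Between the libraries, the large collagens of fibroblasts stood close together. The WQ-2101 to vehicle ratio was 0.959 (0.926 to 0.993) for Col1a1, 0.962 (0.922 to 1.00) for Col1a2 and 1.00 (0.965 to 1.04) for Col3a1. The fibrillar sum had a ratio of 0.939 (0.921 to 0.958). These values lie far inside the 1.5-fold used to single out genes.

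Of 26 measured collagens in fibroblasts, 3 were 1.5-fold or more higher in WQ-2101, beside 14.2% of all genes, and 4 were lower, beside 8.76% of all genes. The median log2 ratio over the 26 was -0.05, against 0.06 over all 10139 genes measured. The higher genes were Col14a1, at 335 and 531 CPM with a ratio of 1.58 (1.35 to 1.86), Col7a1 with 25 and 14 UMIs, and Col4a5 with 4 and 6 UMIs. The direction of all 3 depended on the gate, and Col14a1, with a log2 ratio of 0.65, was at -0.30 with the gate as first written. Col7a1 had a log2 ratio of 0.72, which was -0.35 in cells with no Hmga2 UMI and -0.38 with the first gate. Col4a5 had 1.27, which was -0.31 with the first gate, and it was not measured in cells with no Hmga2 UMI. The lower genes were Col5a3 with a ratio of 0.537 (0.467 to 0.617), Col6a3 with 0.588 (0.521 to 0.663) and Col23a1 with 0.348 (0.221 to 0.526). Col24a1, with 40 and 7 UMIs, had 0.575 (0.217 to 1.30) and kept its call under 5 of 9 alternatives. With the gate as first written the log2 ratio was -0.40 for Col5a3 and -0.25 for Col6a3, both under 1.5-fold, and -1.15 for Col23a1. As a family, beaded filament collagen had 3362 and 2393 CPM in vehicle and WQ-2101, with a ratio of 0.712 (0.665 to 0.762). Basement membrane collagen stood at 1139 and 1475 CPM, a ratio of 1.30 (1.18 to 1.42).

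The make-up of the fibroblast gate also differed between the libraries. Lrrc15, a marker of myofibroblast-like tumour fibroblasts, was at 298 and 143 CPM in the vehicle and WQ-2101 libraries, and Dpt, a marker of connective tissue fibroblasts, at 142 and 362 CPM. Acta2, the smooth muscle actin, was at 1656 and 2183 CPM. Macrophage markers were summed at 259 and 256 CPM. The part of this mix in the library differences was not tested, but the levels within the marker-defined cells can be given. In fibroblasts without any Hmga2 UMI, 101 and 30 cells, the log2 ratio was -1.69 for Col5a3, -1.11 for Col6a3 and 0.82 for Col14a1, each larger than with all cells (-0.89, -0.76 and 0.65). Col6a1 was at -0.60 there against -0.41, and Col11a1 at 0.86 against 0.13, so both passed 1.5-fold in these cells. Col15a1 turned from 0.30 to -0.25, and the basement membrane sum, 0.37 with all cells, was 0.00.

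Fibroblasts were parted by Lrrc15 and Dpt UMIs after the levels had been seen. Cells with Lrrc15 alone were 62 of 136 in vehicle (45.6%) and 12 of 51 in WQ-2101 (23.5%), and cells with Dpt alone 33 (24.3%) and 21 (41.2%). Cells with neither were 9 (6.62%) and 12 (23.5%), so WQ-2101 had more cells without a detected marker. Median depth in fibroblasts was 10383 and 7742 UMIs, and its part in these shares was not tested. The cells with neither had 558 CPM of Col5a3 in vehicle and 1010 CPM in WQ-2101, and 502 and 685 CPM of Col15a1. Col6a3 was at 1764 CPM in vehicle and 1264 CPM in WQ-2101 in the Lrrc15 cells, and at 423 and 445 CPM in the Dpt cells. Col5a3 was at 1460 and 632 CPM against 433 and 344 CPM. Col12a1 was at 1468 and 1790 CPM against 396 and 433 CPM, and Col15a1 at 391 and 588 CPM against 104 and 89.0 CPM. Col14a1 was placed the other way, with 205 and 169 CPM in the Lrrc15 cells and 460.0 and 836 CPM in the Dpt cells. In both libraries, then, Lrrc15 cells carried more of the Col6a3, Col5a3, Col12a1 and Col15a1 transcripts and Dpt cells more Col14a1, while Col1a1 hardly differed (9535 and 8984 CPM against 9576 and 8315 CPM).

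Within these cells the library differences took several forms. Col5a3 was lower in WQ-2101 in the Lrrc15 cells, with intervals of 1372 to 1552 CPM and 494 to 797 CPM that did not overlap. Its intervals overlapped in the Dpt cells. In the cells with both, Col5a3 was also lower in WQ-2101, at 747 and 376 CPM in 32 and 6 cells. In the cells with neither, 9 and 12 of them, it went the other way. There the intervals were 377 to 797 CPM in vehicle and 805 to 1250 CPM in WQ-2101. Col6a3 was lower in WQ-2101 in the Lrrc15 cells, and its intervals overlapped in the Dpt cells and in the cells with neither. In the cells with both, Col6a3 was also lower in WQ-2101, at 994 CPM (895 to 1102) in vehicle and 419 CPM (281 to 602). Col14a1 was higher in WQ-2101 in the Dpt cells (386 to 544 CPM and 704 to 986 CPM) and overlapped in the Lrrc15 cells.

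**Figure D4:**
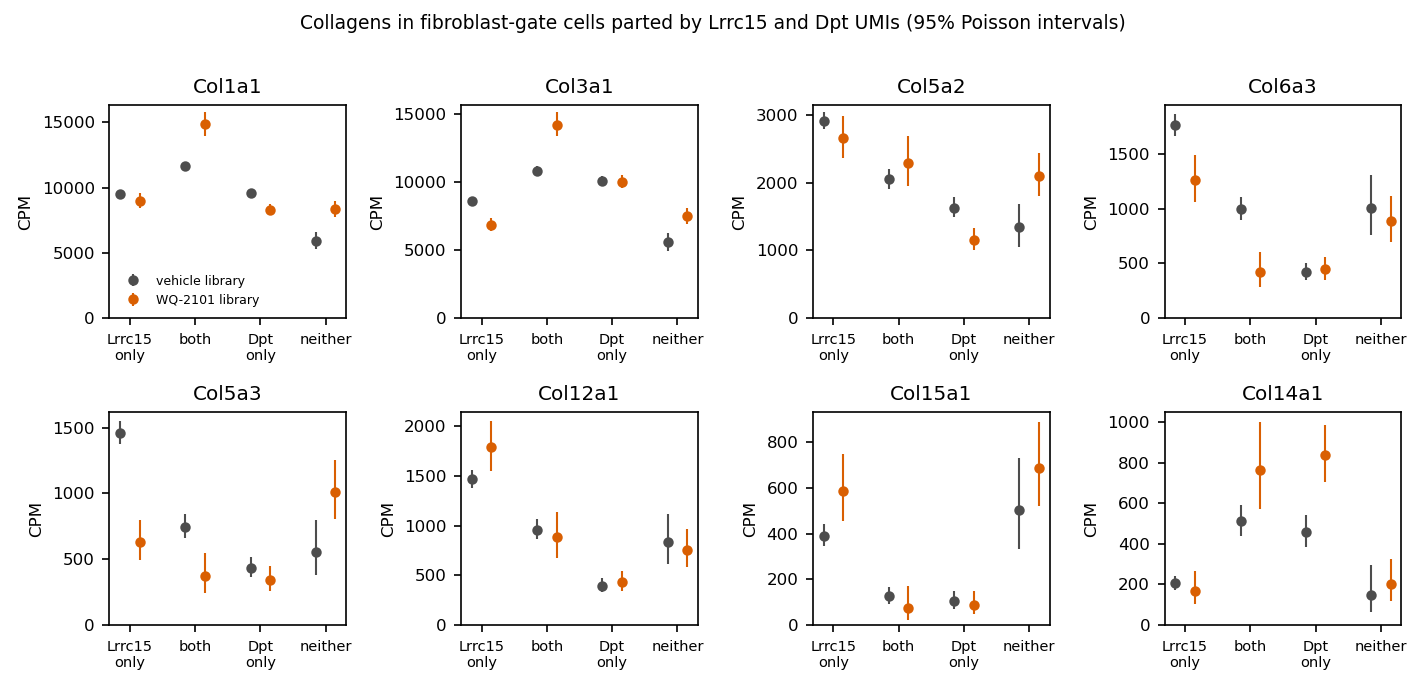
Levels of 8 collagens in CPM (linear axes from 0) in fibroblast-gate cells with Lrrc15 UMIs only, with both, with Dpt UMIs only and with neither, in the vehicle and WQ-2101 libraries, with 95% Poisson intervals. Col6a3, Col5a3, Col12a1 and Col15a1 are higher in Lrrc15-only than Dpt-only cells in both libraries, and Col14a1 is lower.

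Across single fibroblasts the type I chains went together. Spearman's rho of Col1a1 with Col1a2 was 0.79 over 136 vehicle cells and 0.84 over 51 WQ-2101 cells, and with Col3a1 it was 0.56 and 0.61. These are descriptions over cells of 1 library each, which share depth and source. Dpt had a rho of 0.36 and 0.50 with Col14a1 and of -0.52 and -0.44 with Col15a1, and Col12a1 had a rho of 0.41 and 0.66 with Acta2.

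In the pericyte gate, with 17 and 16 cells, 6 of 18 measured collagens were higher in WQ-2101, beside 25.2% of all genes, and 2 were lower, beside 26.6%. Col1a1 was at 1677 and 2964 CPM, Col1a2 at 796 and 1231 CPM and Col5a2 at 525 and 804 CPM. A single WQ-2101 cell held 40.3% of the Col1a1, 56.1% of the Col1a2 and 42.2% of the Col5a2 UMIs of its gate. Fibroblast markers were summed at 159 and 452 CPM in this gate and macrophage markers at 178 and 364 CPM, and their part in these differences was not tested. With macrophage markers under 0.05% the log2 ratio of the fibrillar sum was 0.63. Without the cell with the most collagen in each library, Col1a1 was at 1596 and 1980 CPM, Col1a2 at 771 and 604 CPM, and Col5a2 at 521 and 520 CPM. The log2 ratio of the fibrillar sum moved from 0.35 to -0.21. Basement membrane collagen was at 5865 and 4559 CPM, a ratio of 0.777 (0.681 to 0.886). Its log2 ratio of -0.36 turned to 0.20 where cells with any number of Hmga2 UMIs were let in. Acta2 in the same gate was at 6437 and 3416 CPM, whose part in the difference was not tested.

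Endothelial cells, 34 and 7 of them, carried basement membrane collagen at 5114 and 5120 CPM as a sum over cells, a ratio of 1.00 (0.856 to 1.17). This value depended on how cells were weighted: as a mean over cells the log2 ratio was -0.53, and with any number of Hmga2 UMIs it was -0.44. Col4a1 was seen in 88.2% and 57.1% of the cells, with medians of 2218 and 296 CPM. A single cell of the 7 in WQ-2101 held 45.4% of the collagen. Of 10 measured collagens 1 was higher in WQ-2101, beside 18% of all genes, and 5 were lower, beside 42.8%. Apart from Col13a1, these 6 genes had at most 5 UMIs in either library.

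Hmga2+ cells gave the most precise comparison. Of 17 measured collagens none was 1.5-fold higher in WQ-2101, beside 0.89% of all genes, and none was lower, beside 0.41%. Their median log2 ratio was -0.14, against -0.01 over 9996 genes. Smaller differences were outside counting error. Col3a1 had a ratio of 0.747 (0.737 to 0.757) and Col7a1 of 0.672 (0.634 to 0.713), while Col4a1 had 1.41 (1.36 to 1.47), Col4a2 1.28 (1.23 to 1.33) and Col8a1 1.18 (1.16 to 1.21). Type VI chains stood between 0.954 and 0.981. Thus fibrillar collagen was lower as a sum (0.805, 0.797 to 0.813) and basement membrane collagen slightly higher as a sum (1.09, 1.07 to 1.11). The basement membrane genes did not move together. Col4a1 and Col4a2 were higher, while Col18a1 had a ratio of 0.917 (0.893 to 0.942) and Col4a5 of 0.742 (0.665 to 0.828). Fibroblast markers in the same cells were summed at 729 and 616 CPM, with Dcn at 414 and 296 CPM, and their part in the difference was not tested.

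**Figure D5:**
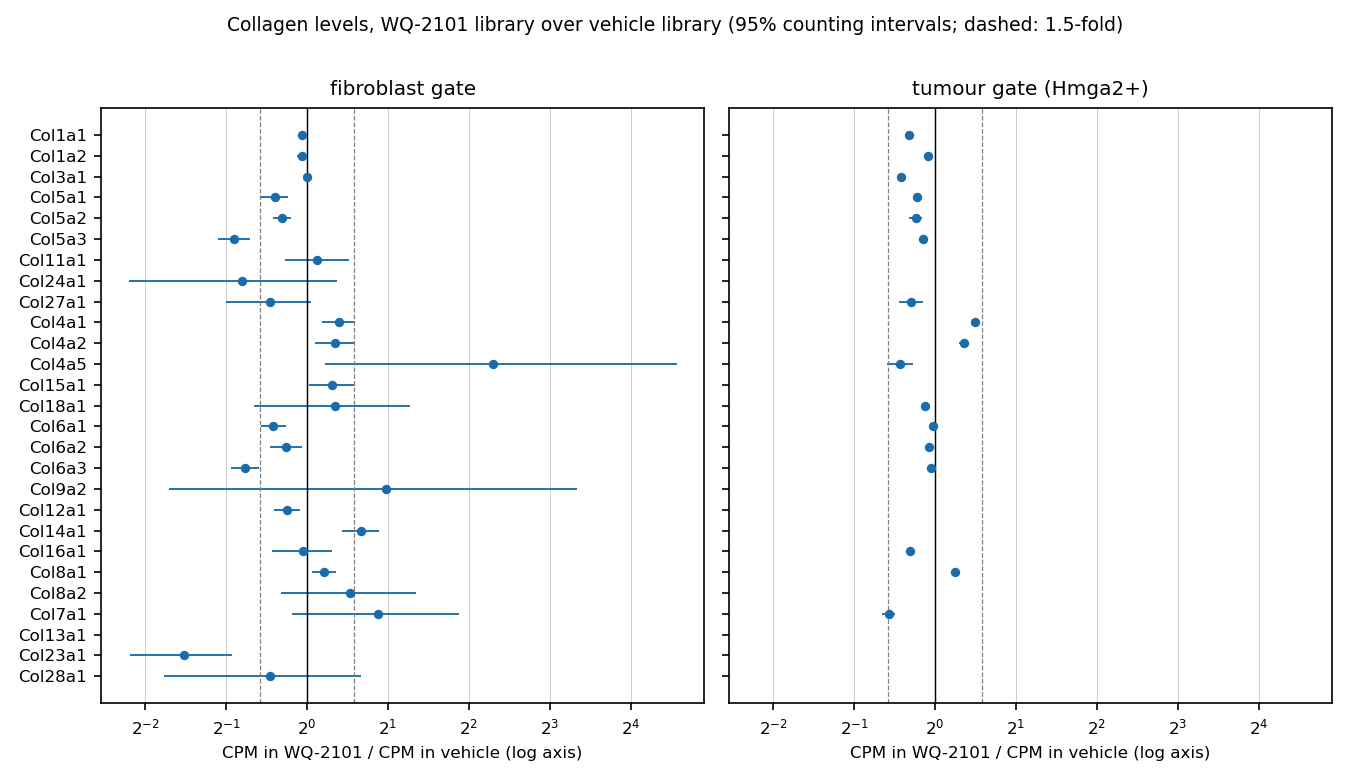
Ratio of WQ-2101 to vehicle CPM on a log axis for measured collagens in the fibroblast and tumour gates, with 95% counting intervals, a solid line at equal levels and dashed lines at 1.5-fold. In the tumour gate every point lies between the dashed lines; in the fibroblast gate Col5a3, Col6a3, Col23a1 and Col24a1 lie to the left of them, and Col14a1 to the right with Col4a5, Col7a1 and Col9a2, which have few UMIs.

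To compare shares of cells at equal depth, each Hmga2+ cell was thinned to 4000 UMIs, which kept 5910 vehicle and 7145 WQ-2101 cells and left out 109 and 433. Col3a1 was then seen in 69.2% of vehicle and 60.1% of WQ-2101 cells, against 94.0% and 84.7% before thinning at median depths of 16355 and 13269 UMIs. In thinned macrophages the share was 12.3% and 11.4%, a rough gauge of free RNA. Their gate leaves out cells with an Hmga2 UMI or several stromal markers, so this share can understate that background. Col4a1 was seen in 14.0% and 17.3% of thinned Hmga2+ cells, Col6a3 in 60.1% and 58.6%, Col8a1 in 28.2% and 31.9%, and Col1a1 in 16.4% and 14.0%. The shares thus followed the levels, lower in WQ-2101 for Col3a1 and higher for Col4a1.

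Collagen was uneven among Hmga2+ cells. The variance of thinned Col3a1 counts was 7.75 times its mean in vehicle and 4.97 times in WQ-2101, where counting alone would give a value near 1. The 1% of cells with the most Col3a1 held 13.8% and 12.8% of it. Col6a3 was more even on both measures, with a variance of 1.35 and 1.26 times its mean and a top share of 5.44% and 5.68%. Col8a1 had a variance of 2.49 and 2.16 times its mean, and its top 1% of cells held 15.97% and 12.8%. Both measures depend on the mean count, which was lower for Col8a1 than for Col3a1, so these genes were not ranked against each other. Summed over all collagens, the median thinned cell had 6 UMIs in both libraries, the 95th percentile was 20 and 17, and the highest cell had 94 and 156.

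Genes that serve collagen were read from lists of folding and modifying enzymes, of processing and crosslinking genes, and of receptors. In fibroblasts 2 of 18 measured folding genes were 1.5-fold lower in WQ-2101 and none higher, beside 8.76% lower and 14.2% higher of all genes: Fkbp14 was at 58.3 and 23.1 CPM and Fkbp10, a partner of lysyl hydroxylase, at 168 and 104 CPM. Serpinh1, the collagen chaperone, was at 1248 and 1341 CPM. Of 14 processing genes Tll1 was higher, at 7.03 and 18.5 CPM on 10 and 8 UMIs. Bmp1, the procollagen protease, was lower, at 373 and 247 CPM. Of 7 receptors 3 were higher and none lower, namely the integrin chains Itga11 (33.0 and 64.6 CPM), Itga1 (81.5 and 152 CPM) and Itga2 (3.52 and 9.23 CPM). Itga2 rested on only 5 and 4 UMIs. The list medians were 0.07, 0.17 and 0.34 on the log2 scale, against 0.06 over all genes.

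In Hmga2+ cells, where 0.89% of all genes were higher and 0.41% lower, 1 of 17 folding genes was higher, P4ha2, a prolyl hydroxylase subunit, at 33.3 and 59.9 CPM, and none was lower. The related lysyl hydroxylase Plod2 was at 78.3 and 113 CPM, under 1.5-fold. None of 11 processing genes and none of 4 receptors passed that size. Serpinh1 was at 384 and 433 CPM and Ddr2, a collagen receptor kinase, at 151 and 148 CPM. Lox, the crosslinking enzyme, was at 1.01 and 0.88 CPM, against 1216 and 937 CPM in fibroblasts. In the pericyte gate, where 25.2% of all genes were higher and 26.6% lower, the counts were 6 higher and 3 lower of 17 folding genes, 3 and 1 of 10 processing genes, and 1 and 0 of 4 receptors. In endothelial cells, with 18% higher and 42.8% lower over all genes, they were 4 and 4 of 16, 1 and 2 of 6, and 3 and 0 of 4.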

How the data were processed

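Droplet single-cell RNA sequencing of whole tumours gave 1 library per group. The authors deposited unnormalised UMI counts for each gene in each barcode. Per the file headers these were made by Cell Ranger 7.2.0; the version in the submitters' processing notes is 2.2.2, with the genome GRCm38. The annotation release, intron handling and any free RNA correction are not given in the sources used. Coordinates came from GENCODE vM21 and promoter windows from RefSeq (GRCm38.p6).

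Barcodes needed 500 UMIs, 300 genes and at most 15% mitochondrial UMIs. Scrublet, with 0.8% expected doublets per 1000 barcodes, removed 545 and 753. Fibroblasts, pericytes, endothelial and tumour cells lacked Ptprc UMIs and had under 0.2% of UMIs in macrophage markers. Macrophages (Ptprc present, 6 of 8 markers, no Hmga2, few stromal markers) and T cells (3 of 6 markers) were gated for reference only. Fibroblasts needed 3 of 8 markers (Dcn, Lum, Pdgfra, Mmp2, Lrrc15, Islr, Mfap5, Dpt) including 2 of the 5 Lum, Lrrc15, Islr, Mfap5 and Dpt. Pericytes needed 3 of 8 (Rgs5, Kcnj8, Abcc9, Notch3, Higd1b, Cox4i2, Heyl, Cspg4) including 2 besides Cspg4, and endothelial cells 3 of 8 (Cdh5, Kdr, Cldn5, Emcn, Plvap, Tie1, Egfl7, Esam). These stromal cells had at most 1 Hmga2 UMI, and tumour cells 2 or more with few stromal markers. This gate replaced the first one after marker counts were seen, because that one placed 1611 vehicle and 1265 WQ-2101 cells, mostly carrying Hmga2, among fibroblasts and 1 and 0 among tumour cells. The members follow from their symbols alone, but this rule, the lists and the gates were set with earlier results of these data known. Named genes are those with a mean of at least 5 CPM over both libraries and more than 3 UMIs in 1 of them in a class.

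Counts were summed per class and library and divided by class UMIs (CPM). Intervals are exact 95% Poisson and exact conditional intervals, and 1 UMI was worth from 0.009 CPM in tumour cells to 26.1 CPM in WQ-2101 endothelial cells. The log2 ratio of a gene used CPM plus 5, and that of a family sum used CPM with nothing added. The ratio code was checked on simulated counts. Alternatives changed the pseudocount, filters, markers, Hmga2 limits and cells. Python 3.11.15, scanpy 1.11.5, pandas 2.3.3, scipy 1.17.1, numpy 2.4.6 and matplotlib 3.10.9 were used.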

Additional observations from a re-analysis of the deposited data

Results flagged for a closer look

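Col14a1 was higher in macrophages, outside the 4 classes, than in Hmga2+ cells and T cells. Macrophages of the vehicle library carried 26.7 CPM (95% Poisson interval 24.3 to 29.2) and those of the WQ-2101 library 13.9 CPM (11.8 to 16.2), in 302 of 2050 cells (14.7%) and 133 of 1726 cells (7.71%). Hmga2+ cells had 0.719 and 0.603 CPM, in 1.28% and 0.699% of cells, and T cells 0.795 and 0.802 CPM. Median depths were 7996.5 and 6471 UMIs in macrophages and 16355 and 13269 in Hmga2+ cells. The ratio of Col14a1 to Col1a1 was 2.12 and 1.80 in macrophages, and 0.034 and 0.056 in fibroblasts. Macrophages held 30.7% of all Col14a1 UMIs in vehicle and 19.1% in WQ-2101. The source of this RNA was not tested.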

How the results depend on the processing

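No paired analysis was possible because each group had 1 library. Counts and sums were recomputed under up to 11 alternatives each: 73 values stayed within the counting error or 1.5 times the count, and 28 moved. The pericyte fibrillar, pericyte basement membrane and fibroblast basement membrane sums, all under 1.5-fold, changed sign beyond counting error under 1 alternative each. The gate, the cells with Hmga2 and single cells mattered most. The log2 ratio of the fibroblast fibrillar sum (-0.09) was -0.057 without any Hmga2 UMI, -0.40 with any number, -0.89 with the gate as first written and -0.12 without the cell with the most collagen. The fibroblast basement membrane sum (0.37) was 0.00086, 0.18 and -0.052 under the first 3 of these, and the first gate gave 9 lower members in place of 4. The pericyte fibrillar sum (0.35) was 0.63 with macrophage markers under 0.05%, 0.58 with any Hmga2, 0.058 as a mean over cells and -0.21 without the top cell. The pericyte basement membrane sum (-0.36) was 0.20 with any Hmga2 and -0.063 with the first gate. The 2 lower pericyte members became 1 with macrophage markers under 0.05%, with any Hmga2 and with the first gate. The endothelial basement membrane sum (0.00) was -0.44 with any Hmga2, -0.26 with the first gate and -0.53 as a mean over cells, and its 5 lower members became 2 with no Hmga2, 3 with any and 1 at 20 CPM. In tumour cells the fibrillar sum (-0.31) was -0.29 with macrophage markers under 0.05%, -0.44 with stromal markers allowed and -0.43 as a mean over cells. The basement membrane sum (0.12) was 0.031 as a mean over cells, and allowing stromal markers gave 1 lower member, Col1a1, in place of 0. The log2 ratio of Col14a1 in fibroblasts was -0.30 under the first gate, against 0.65. The cause was not tested. With 7 endothelial cells in WQ-2101, a gene with 0 UMIs could still be at 96.4 CPM.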
